A study of Mus musculus with 2 samples.

Results

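Heat shock proteins are molecular chaperones, proteins that keep other proteins folded. The genes described here are a named set of 9 among the 17829 genes of the count matrix, and all 9 were found by symbol: Hspa1a, Hspa1b, Hspa8, Hspb1, Hspe1, Hsp90aa1, Dnajb1, Dnaja1 and Hsph1. The data are single-cell RNA counts from C57BL/6 mouse colonic epithelial cells, sorted as live cells that carry the surface protein EpCAM. One library came from Mettl14 WT mice and the other from Mettl14 KO mice. Mettl14 is a subunit of the enzyme that places m6A, a methyl mark on adenosines in RNA. The series text gives 2 weeks without saying from what event it is counted. The driver of the deletion, the deleted exons and the number of mice behind each library are not given in the sources used here.

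Hsp70 proteins bind short stretches of unfolded client proteins in a cycle of ATP binding and hydrolysis. J-domain proteins such as Dnaja1 and Dnajb1 deliver clients and trigger hydrolysis, and Hsph1 (Hsp110) then exchanges the nucleotide so that the client is released. Clients such as kinases and steroid receptors pass on to Hsp90, and small heat shock proteins such as Hspb1 hold unfolded proteins without ATP. The transcription factor Hsf1 raises many of these genes in stressed cells by binding the heat shock element, which is built from GAA units in alternating orientation. Hspa8 is the constitutive cytosolic Hsp70, whereas Hspa1a and Hspa1b are its strongly stress-inducible relatives. Hspe1 differs from the name of the set: it encodes the mitochondrial co-chaperonin Hsp10, the lid of the Hspd1 (Hsp60) chamber, and is not a cytosolic protein.

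Depth is given in UMIs, unique molecular identifiers that each mark a captured RNA molecule: 60205658 UMIs in 4210 WT cells and 37635762 UMIs in 3653 KO cells. The median cell had 12094 UMIs in WT and 9119 in KO, and 2 cell barcodes occurred in both libraries. Of Mettl14 itself, 632 UMIs were counted in WT and 201 in KO, or 10.5 and 5.34 CPM (counts per 1000000 UMIs of the cells summed). A 3′ tag that lies outside a deleted exon does not check the label, and the deleted part is not given. Both libraries mixed female-patterned cells, which had 3 or more Xist UMIs and none from the Y chromosome (1689 in WT, 1696 in KO), and male-patterned cells, with Y-linked UMIs but none of Xist (1540 and 996). The authors' clusters are used by number. By marker genes, clusters 1 and 2 were goblet-like, cluster 3 cycling-like, cluster 4 colonocyte-like and cluster 5 enteroendocrine-like. Cluster 0 was led by pancreatic digestive enzyme genes that came from 33 enzyme-rich cells, all in WT, and is left unnamed. Cluster 6 was led by collagen genes and S100a9 although the cells were sorted for EpCAM. It held 117 WT and 31 KO cells, too few to compare.

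The promoter windows of these genes are shown because pairs of GAA units in opposite orientation are the letters Hsf1 is known to bind. RefSeq windows of 300 bases around the transcription start (250 bases before and 50 after, build GRCm38.p6) were on hand for 7 of the 9 genes, in 11 windows where a gene has several starts, and none was used for Hspa8 and Hsp90aa1. They were searched for GAANNTTC and TTCNNGAA, where N is any base. Each pattern reads the same on both strands, and neighbouring matches may share a unit. At least 1 pair was found for 6 of the 7 genes, in 7 of the 11 windows. These are not all separate sequences: the Hsph1 windows overlap and hold the same matches, and the matched stretches of Hspa1a and Hspa1b are identical. Over all 32851 windows of the table, 15.1% held a pair. A run of 3 units, GAANNTTCNNGAA or its reverse TTCNNGAANNTTC, occurred in the windows of Hspe1 and Hsph1 and in 0.603% of all windows. Dnajb1 had no pair in either of its windows. TATAAA or its reverse TTTATA was in none of the 11 windows and in 13.6% of all windows. A match describes letters in the window and is not a measured binding site, and no match says only that these letters are not there.

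The stretches that hold the matches follow, 5′ to 3′ on the gene's strand, with the paired units and the bases between them in capitals.
Hspa1a, chr17:34972233-34972280, minus strand: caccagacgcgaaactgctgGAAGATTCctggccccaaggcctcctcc
Hspa1b, chr17:34959315-34959362, minus strand: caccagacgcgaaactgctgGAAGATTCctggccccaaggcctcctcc
Hspb1, chr5:135887782-135887849, plus strand: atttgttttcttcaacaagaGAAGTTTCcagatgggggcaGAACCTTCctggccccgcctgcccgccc
Hspe1, chr1:55088053-55088082, plus strand: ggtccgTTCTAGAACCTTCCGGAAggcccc
Dnaja1, chr4:40722338-40722357, plus strand: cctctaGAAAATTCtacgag
Hsph1, chr5:149636356-149636375, minus strand: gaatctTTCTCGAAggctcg
Hsph1, second stretch, chr5:149636280-149636308, minus strand: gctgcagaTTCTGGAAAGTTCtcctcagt
In GENCODE vM21 the Hspa1a, Hspa1b and Hspb1 stretches overlap no gene and lie upstream of the start. The Hspe1 stretch overlaps an exon of Hspd1 on the opposite strand, since the first exons of these neighbours lie head to head. The Dnaja1 stretch and both Hsph1 stretches overlap an annotated exon of their own gene, and the Dnaja1 stretch also an exon of Gm6297 on the opposite strand.

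Hspa1a and Hspa1b, the stress-inducible Hsp70 genes, lie beside each other on the minus strand of chromosome 17, at 34969190 to 34972156 and 34956436 to 34959238. Their promoter windows shared 296 of 300 bases, and the differences, written as the Hspa1a base, the position from the first base of the window and the Hspa1b base, were C44T, T47C, T249G and C276T, all outside the stretch shown. Their coding parts shared 99.4% of aligned bases and the parts after the coding end 47.5%. How the authors' counting treated reads that match both copies is not given, so the split between the 2 genes is uncertain.

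Both inducible genes were close to absent. Hspa1a had 49 UMIs in WT and 11 in KO, or 0.814 and 0.292 CPM, and at most 4 UMIs in any cell. Hspa1b had 105 and 71 UMIs, or 1.74 and 1.89 CPM. A UMI of Hspa1b was seen in 2.11% of cells in WT (1.70% to 2.60%, an exact 95% interval) and 1.81% in KO (1.40% to 2.29%). The log2 ratio of KO to WT CPM was -1.48 for Hspa1a, with an exact binomial 95% interval from -2.57 to -0.51, and 0.11 (-0.34 to 0.56) for Hspa1b. All intervals cover counting error only. With 1 library per genotype no test of the genotype was possible, and a difference between the mice or the preparations cannot be told apart from one between the genotypes. Cluster 6 held 19 of the 49 WT UMIs of Hspa1a. Without that cluster Hspa1a no longer reached the 50 UMIs required of a measured gene. Over all cells, cluster 6 included, the pair summed had 154 and 82 UMIs, a ratio of -0.23 (-0.64 to 0.16).

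The other genes ranged from a UMI in nearly every cell to rare ones. Hspa8 (chromosome 9, 40800984 to 40810087) had 69190 UMIs in WT and 38334 in KO, or 1149 and 1019 CPM. Hspe1 (chromosome 1, 55088132 to 55091307) had 42113 and 21716 UMIs, or 699 and 577 CPM. Hsp90aa1 (chromosome 12, 110690605 to 110702728), the stress-responsive cytosolic Hsp90, had 25773 and 13558 UMIs, or 428 and 360 CPM. These 3 genes held 91.0% of the UMIs of the 9 genes in WT and 87.6% in KO. All 3 were lower in KO by a small amount: the log2 ratio was -0.17 (-0.19 to -0.16) for Hspa8, -0.28 (-0.30 to -0.25) for Hspe1 and -0.25 (-0.28 to -0.22) for Hsp90aa1. Summed, the 9 genes made up 0.250% of all UMIs in WT and 0.223% in KO, a log2 ratio of -0.16 (-0.18 to -0.15).

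Both J-domain genes were higher in KO. Dnajb1 (chromosome 8, 83608193 to 83612653), the J-domain partner typical of the stress response, had 2146 UMIs in WT and 2160 in KO, or 35.6 and 57.4 CPM, and its log2 ratio was 0.69 (0.60 to 0.77). Dnaja1 (chromosome 4, 40722150 to 40737149), a J-domain partner of Hspa8, had 9519 and 7095 UMIs, or 158 and 189 CPM, a log2 ratio of 0.25 (0.21 to 0.30). Hsph1 (chromosome 5, 149614287 to 149636376), the Hsp110 exchange factor, had 1425 and 833 UMIs, or 23.7 and 22.1 CPM, and its interval included equal levels (-0.10, -0.22 to 0.03). Hspb1 (chromosome 5, 135887919 to 135889563), the small heat shock protein Hsp25, had 301 and 286 UMIs, or 5.0 and 7.6 CPM, a log2 ratio of 0.60 (0.37 to 0.84) that rested on few cells and is taken up further on.

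**Figure D1:**
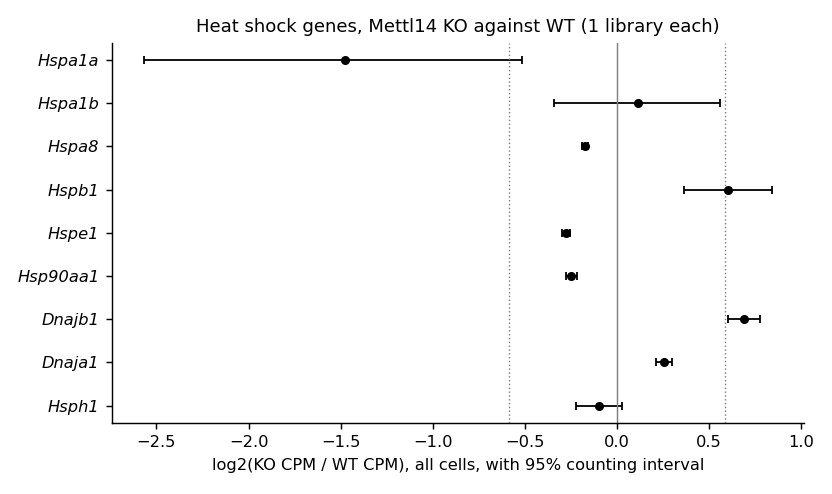
Log2 ratio of KO to WT CPM over all cells for the 9 heat shock genes, 1 library per genotype; points are ratios, bars the exact binomial 95% interval (counting error only) and dotted lines a 1.5-fold difference. Dnajb1 (0.69) and Hspb1 (0.60) lie beyond the upper line and Hspa1a (-1.48) beyond the lower one, while Hspa8, Hspe1 and Hsp90aa1 lie between -0.28 and -0.17.

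A gene was called higher or lower where the CPM differed by at least 1.5-fold and the interval excluded equal levels. Of the 9 genes, Dnajb1 and Hspb1 were called higher in KO and Hspa1a lower. Among all 13334 genes with at least 50 UMIs, 16.7% were called higher and 16.2% lower by the same rule, so a count of 2 higher and 1 lower of 9 is near the share over all genes. The median log2 ratio of the 9 was -0.10, beside -0.04 over all measured genes. With mitochondrial, ribosomal protein and haemoglobin genes left out of the totals, Hspb1 (0.53) fell short of 1.5-fold and Dnajb1 (0.62) did not. With each cell thinned to 3000 UMIs, Dnajb1 was just short of it at 0.58 (0.39 to 0.76).

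Levels also differed between the authors' clusters. Hspa8 had the same order of clusters in both libraries, from cluster 0 (1392 CPM in WT, 1222 in KO) through clusters 5, 3, 4 and 2 to cluster 1 (885 and 737 CPM). Its intervals in clusters 0, 5 and 3 overlapped between neighbours in that order, and in WT those of clusters 2 and 1 did too. Hsp90aa1 was highest in cycling-like cluster 3, at 641 CPM in WT and 547 in KO, and lowest in the goblet-like clusters, at 289 CPM in cluster 2 of WT and 244 in cluster 1 of KO. Hspe1 was high in clusters 0 and 3 (984 and 816 CPM in WT, 670 and 741 in KO) and low in cluster 1 (483 and 427 CPM), while in KO it was lowest in cluster 5 (370 CPM). Dnaja1 was highest in enteroendocrine-like cluster 5 (269 CPM in WT, 308 in KO) and lowest in cluster 1 (125 and 141 CPM), with the 6 clusters in the same order in both libraries. Hsph1 was also highest in cluster 5 and lowest in cluster 1 in both libraries, between 36.3 and 16.6 CPM in WT and between 28.9 and 15.4 CPM in KO. The Hsph1 intervals overlapped between neighbours in clusters 5, 0 and 3 of WT, and between all neighbours in KO. Dnajb1 ranged from 30.4 CPM in cluster 1 to 38.9 CPM in cluster 4 in WT, and from 47.3 CPM in cluster 1 to 75.5 CPM in cluster 3 in KO. In both libraries every pair of neighbours in that order had overlapping intervals, while those of the highest and lowest cluster did not overlap.

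**Figure D2:**
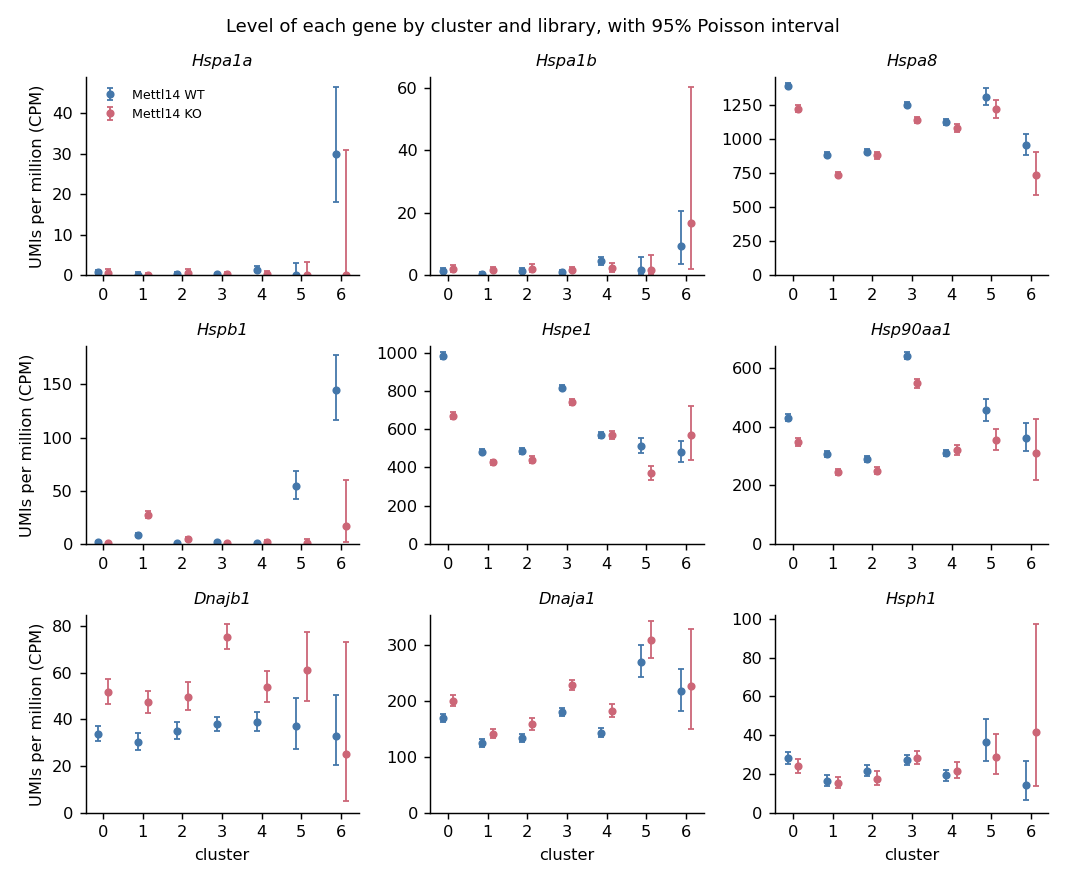
Level of each of the 9 genes in CPM (linear axis from 0) for clusters 0 to 6, WT in blue and KO in red; bars are exact Poisson 95% intervals. Goblet-like clusters 1 and 2 are low for Hspa8, Hspe1, Hsp90aa1 and Dnaja1 in both libraries, and the Dnajb1 points of KO stand above those of WT in clusters 0 to 5.

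Within clusters the directions were mostly those seen over all cells. Dnajb1 was higher in KO in 6 of 6 clusters with at least 50 cells per library, and each interval excluded equal levels. Its log2 ratio ran from 0.47 (0.23 to 0.70) in colonocyte-like cluster 4 to 0.99 (0.84 to 1.14) in cycling-like cluster 3, where the level was 38.0 CPM in WT and 75.5 in KO. In smaller sets of cells some intervals included equal levels. In male-patterned cells the ratio was 0.23 (-0.20 to 0.65) in cluster 0 and 0.06 (-0.50 to 0.60) in cluster 2. Among cells with at most 10% mitochondrial UMIs it was 0.17 (-0.31 to 0.65) in cluster 0 and 0.39 (-0.02 to 0.80) in cluster 1. With thinned cells it was 0.38 (-0.14 to 0.91), 0.35 (-0.14 to 0.85) and 0.19 (-0.28 to 0.66) in clusters 1, 2 and 4. Dnaja1 was higher in KO in 6 of 6 clusters, with 5 intervals excluding equal levels and ratios between 0.18 and 0.35. Hspa8 was lower in 6 of 6 clusters (4 intervals excluding equal levels, -0.26 to -0.04). In clusters 2, 4 and 5 its sign changed under other settings, for example to 0.03, 0.07 and 0.03 among cells with at most 10% mitochondrial UMIs. Hspe1 was lower in 6 of 6 (5 intervals), most in cluster 0 at -0.55 (-0.60 to -0.51), and in cluster 4 it differed by -0.01 (-0.07 to 0.06). Hsp90aa1 was lower in 5 of 6 clusters, each of those intervals excluding equal levels, and in cluster 4 the ratio was 0.04 (-0.05 to 0.13). Hsph1 had 2 ratios above 0 and 4 below, with no interval excluding equal levels. Hspa1b could be measured in cluster 4 alone, with 43 UMIs in WT and 11 in KO (-0.98, -2.08 to 0.00). Summed with Hspa1a there, the pair had 56 and 12 UMIs, a ratio of -1.23 (-2.27 to -0.32). Whether any ratio differs between clusters was not tested.

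**Figure D3:**
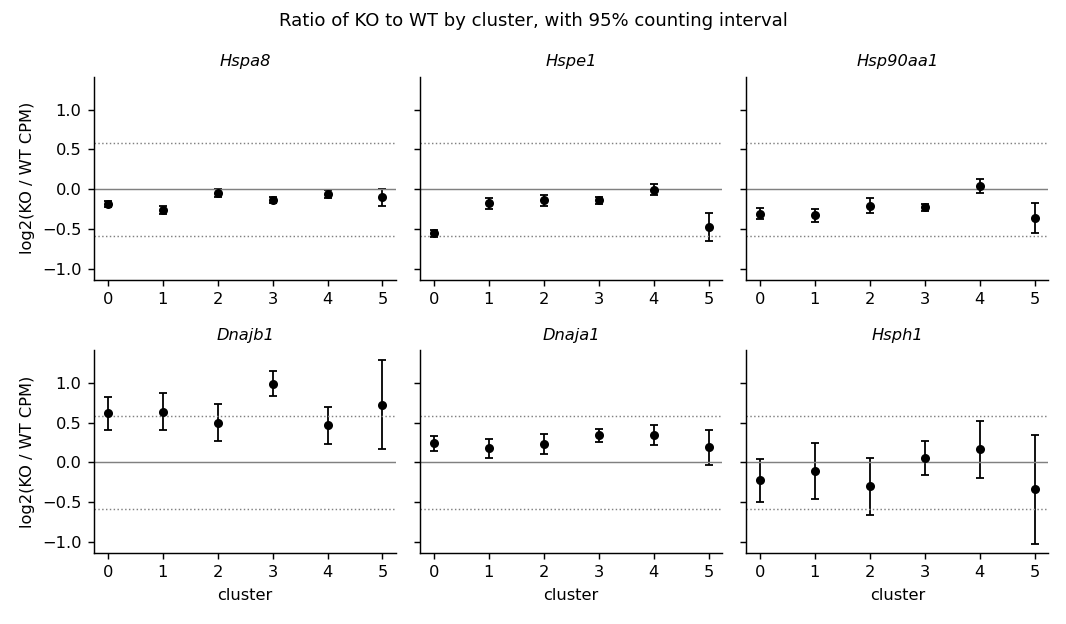
Log2 ratio of KO to WT CPM in clusters 0 to 5 for the 6 genes measured in each of them; bars are exact binomial 95% intervals and dotted lines mark a 1.5-fold difference. Dnajb1 lies above 0 in all 6 clusters and highest in cluster 3 (0.99), Dnaja1 between 0.18 and 0.35, and Hspe1 lowest in cluster 0 (-0.55).

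Few of the cluster ratios were called. In cluster 0 Dnajb1 was the only gene called higher of 6 measured and none was called lower, beside 19.9% and 12.9% of all 10782 genes measured there. In cluster 1 Hspb1 and Dnajb1 were called higher of 7 and none lower (13.1% and 16.8% of all measured genes). In cluster 2 none of 6 was called in either direction (14.4% and 16.7%). In cluster 3 Dnajb1 was called higher of 6 and none lower (17.5% and 11.7%). In cluster 4 none of 7 was called (16% and 12.7%). In cluster 5 Dnajb1 was called higher and Hspb1 lower of 7 (14.9% and 9.76%).

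Among cells, the abundant genes were spread widely. A UMI of Hspa8 was seen in 98.2% of WT and 99.0% of KO cells, of Hspe1 in 95.1% and 94.6%, of Hsp90aa1 in 90.4% and 88.0% and of Dnaja1 in 78.7% and 77.8%. Dnajb1 was seen in 36.5% of WT cells and 40.9% of KO cells. After each cell was thinned to 3000 UMIs, which left out 172 WT and 97 KO cells, the shares with Dnajb1 were 10.0% (9.10% to 11.0%) and 14.8% (13.6% to 16.0%), and those with Dnaja1 36.5% (35.0% to 38.0%) and 43.3% (41.7% to 45.0%). In cluster 3 the thinned share with Dnajb1 was 10.2% in WT and 20.6% in KO. The highest count of Dnajb1 in a cell was 6 in both libraries. Across cells of 1 cluster and library, thinned counts of Hspa8, Hspe1, Hsp90aa1, Dnajb1, Dnaja1 and Hsph1 were at most weakly correlated. Over 10 such sets of 480 to 1054 cells the median Pearson correlation of their 15 pairs lay between -0.02 and 0.10. The pairs among Hspa8, Hspe1 and Hsp90aa1 were above 0 in every set (0.02 to 0.17), and every other pair was below 0 in some set. Values this weak in sparse counts are no finding, and they do not show that the genes vary independently.

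Hspb1, unlike the abundant genes, had its UMIs in a few places that differed between the libraries. In WT, 92 of its 301 UMIs were in cluster 6, 73 in goblet-like cluster 1 and 69 in enteroendocrine-like cluster 5. In KO, 236 of 286 UMIs, or 82.5%, were in cluster 1. Within cluster 1 the level was 8.44 CPM in WT and 27.6 CPM in KO, a log2 ratio of 1.71 (1.32 to 2.11). A UMI of Hspb1 was seen in 51 of 606 WT cells there, or 8.42% (6.33% to 10.9%), and in 138 of 755 KO cells, or 18.3% (15.6% to 21.2%). Median depths were 11804.5 and 10329 UMIs. Thinned to 3000 UMIs the shares were 1.02% (0.374% to 2.20%) and 7.75% (5.94% to 9.91%). No cluster is known to lack the gene. In cluster 4, where it was rare in both libraries, the shares were 1.21% and 1.63% at median depths of 12288.5 and 9210 UMIs.

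In enteroendocrine-like cluster 5 the order was opposite. The WT cells had 69 Hspb1 UMIs in 21 of 99 cells, or 21.2% (13.6% to 30.6%), and the KO cells 1 UMI in 1 of 151 cells, or 0.662% (0.0168% to 3.63%). The levels were 54.4 and 0.877 CPM, a log2 ratio of -5.96 with a counting interval from -11.28 to -3.43. Median depths were 7897 UMIs in WT and 5492 in KO. Within the WT cells, Hspb1 went with Tph1, the serotonin-synthesis enzyme of enterochromaffin cells: 18 of the 21 cells with Hspb1 had a Tph1 UMI, against 23 of the 78 without. The cells with Hspb1 were also deeper, with a median of 8862 UMIs against 7809.5. Sct (20 of 21 against 39 of 78), Chga (21 of 21 against 65 of 78) and Chgb (21 of 21 against 58 of 78) went with Hspb1 too. Pyy, Gcg, Cck, Sst and Insl5 were seen in lower or similar shares of the cells with Hspb1. Among cells with Tph1, Hspb1 was seen in 18 of 41 in WT (43.9%, 28.5% to 60.3%) and in 0 of 23 in KO, where 3 cells in place of 0 set an upper limit of 13% on cells with a UMI. Those Tph1 cells had a median of 6200 UMIs in WT and 4378 in KO. Tph1 cells made up 41 of the 99 WT cells and 23 of the 151 KO cells of the cluster. Of the 69 WT UMIs, 28 were in the 36 male-patterned cells and 1 in the 31 female-patterned cells, while KO had 37 and 75 such cells. The rest of the 69 UMIs were in WT cells that had neither pattern. Such cells include those with both Xist and Y-linked UMIs, and whether the signal went with sex was not tested. Once cells in which Xist and Y-linked UMIs occurred together were left out, Hspb1 was no longer called lower in this cluster. Such a call also requires 50 UMIs. How the makeup of cluster 5 bears on the difference was not tested.

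The cluster 6 UMIs came mostly from a small group of cells. Of the 92 WT UMIs, 70 were in 7 cells rich in Defb50, Pbsn and Tgm4, genes known from the secretions of the male reproductive tract. Over all clusters 10 such cells were found in WT and 0 in KO. They held 87 of the 587 Hspb1 UMIs of both libraries, at 621 CPM against 5.12 CPM in all other cells. Without these 10 cells the log2 ratio of Hspb1 over all cells was 1.09 (0.83 to 1.36) in place of 0.60. Without cluster 1 it was -1.36 (-1.83 to -0.92), and with the clusters given equal weight it was -0.49. With thinned cells it was 0.11 (-0.35 to 0.57) and among cells with at most 10% mitochondrial UMIs 0.04 (-0.35 to 0.42).

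**Figure D4:**
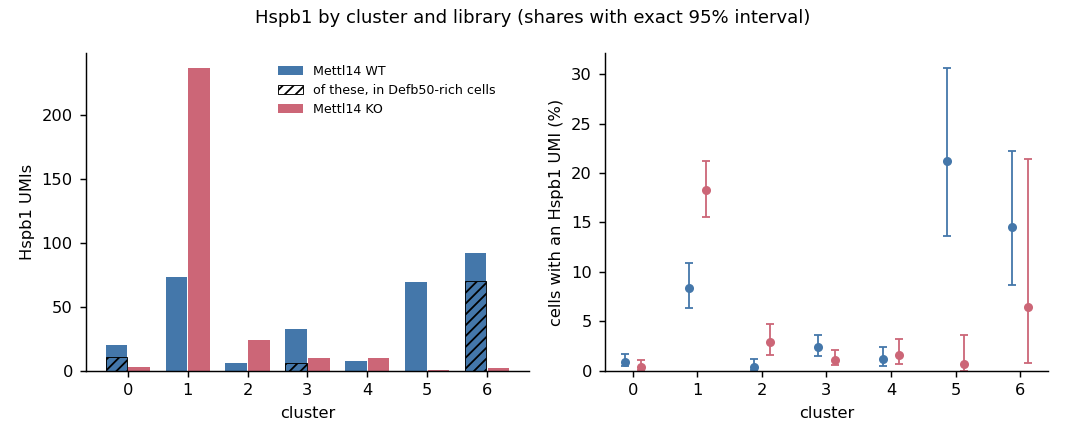
Hspb1 by cluster, WT in blue and KO in red. Left, UMIs per cluster, with the UMIs of the 10 WT cells rich in Defb50, Pbsn and Tgm4 hatched; right, percent of cells with a UMI and its exact 95% interval, high in cluster 1 of KO (18.3%) and in clusters 5 (21.2%) and 6 of WT.

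Over all cells, Dnajb1, Dnaja1, Hspa8, Hspe1 and Hsp90aa1 had ratios of the same sign in female- and male-patterned cells. In female-patterned cells Dnajb1 had a log2 ratio of 0.72 (0.59 to 0.85) and in male-patterned cells 0.67 (0.51 to 0.83). Those of Dnaja1 were 0.23 (0.16 to 0.29) and 0.31 (0.23 to 0.39), and those of Hspa8 -0.17 (-0.19 to -0.14) and -0.15 (-0.18 to -0.11). Those of Hspe1 were -0.30 (-0.34 to -0.27) and -0.17 (-0.22 to -0.13), and those of Hsp90aa1 -0.27 (-0.32 to -0.23) and -0.16 (-0.22 to -0.10). For these 2 genes the intervals of the patterns did not overlap, and the difference was not tested. By cluster, Dnajb1 was at 0.84 and 0.23 in cluster 0, 0.61 and 0.06 in cluster 2 and 0.27 and 0.69 in cluster 4. Hspb1 had ratios of 2.0 (1.38 to 2.66) and 0.76 (0.41 to 1.12). In cluster 1 they were closer, 1.78 (0.91 to 2.77) and 2.07 (1.54 to 2.62). Male-patterned cells had 10.5 CPM of Hspb1 in WT and 43.9 in KO there, and female-patterned cells 5.37 and 18.5 CPM.

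The other genes of the chaperone network were counted in fixed lists, by the same rule over all cells. Hsf1 was nearly level over all cells, with 16.7 CPM in WT and 15.6 in KO (-0.10, -0.25 to 0.05). By cluster its ratio ran from -0.51 (-0.96 to -0.08) in cluster 4 to 0.14 (-0.11 to 0.40) in cluster 3. Over all cells none of 3 measured regulators of the heat shock response was called. Hsp90ab1, the constitutive cytosolic Hsp90, was level at 2126 and 2134 CPM (0.01, -0.01 to 0.02), beside the -0.25 of Hsp90aa1. Of 12 Hsp90 and co-chaperone genes, Fkbp5, an immunophilin of steroid receptor complexes, was called higher (6.88 and 21.2 CPM, 1.62) and none lower. The median of these 12 genes was -0.18. Of 9 nucleotide exchange and client fate genes, Bag5, a BAG-domain exchange factor, was called higher (21.8 and 63.2 CPM, 1.54) and none lower. Of 5 other Hsp70 and Hsp110 genes, Hspa13 was higher (20.7 and 45.5 CPM, 1.13) and Hspa2, the testis-enriched Hsp70, lower (-0.90). Of 10 other J-domain genes, Dnaja4 was higher (0.65) and Dnajb5 lower (-0.78). Of 4 measured small heat shock genes, Hspb8 was higher (1.64, from 21 and 41 UMIs) and Cryab, alpha B-crystallin, lower (-1.59, from 96 and 20 UMIs).

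Further lists, of other chaperones and of immediate early genes, are set beside them. Of 13 genes of the CCT chaperonin, which folds actin and tubulin, and of prefoldin, which hands it clients, Cct4 was called lower (203 and 121 CPM, -0.75) and none higher, and the list's median was -0.18. Of 10 mitochondrial chaperone and protease genes, the Hsp70 exchange factors Grpel1 (113 and 203 CPM, 0.84) and Grpel2 (44.7 and 79.0 CPM, 0.82) were higher and none lower. Hspd1, the Hsp60 partner of Hspe1 and its head-to-head neighbour, was at 417 and 404 CPM (-0.05, -0.07 to -0.02), beside the -0.28 of Hspe1. By cluster Hspd1 ran from -0.35 (-0.41 to -0.29) in cluster 0 to 0.21 (0.13 to 0.29) in cluster 4. Hspe1 was at -0.55 and -0.01 in those clusters. Of 14 endoplasmic reticulum chaperones, Hspa5 (BiP, 347 and 849 CPM, 1.29) and Manf (222 and 353 CPM, 0.67) were higher and none lower, with a median of 0.28. Of 20 immediate early genes, which respond to stimuli and to tissue handling, 13 were called lower and 2 called higher, the median being -1.19 and Fosb lowest (125 and 12.3 CPM, -3.35), followed by Atf3 (-3.14), Dusp1 (-2.83) and Cyr61 (-2.83). Their part in the ratios of the heat shock genes was not tested. Each count stands beside the 16.7% and 16.2% of all measured genes.

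**Figure D5:**
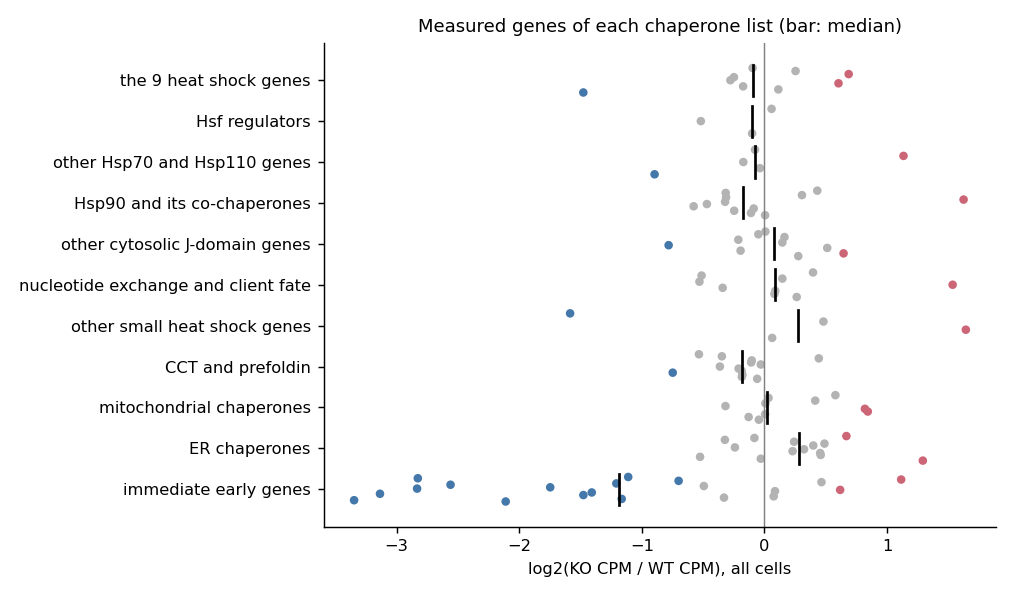
Log2 ratio of KO to WT CPM over all cells for each measured gene of the 9 heat shock genes and of 10 chaperone and stress lists; red points were called higher, blue lower and grey neither, and black bars are list medians. The endoplasmic reticulum list has a median of 0.28 and the immediate early list of -1.19, while the 9 heat shock genes have -0.10.

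The genes whose pattern was most like the mean of the 9 standardised members over the 12 sums of cluster and library were sought. By Pearson correlation of log2(CPM + 1) they were Nob1 (0.95), Hsp90ab1 (0.94), Nme4 (0.93), Arl6ip4 (0.92) and Sugt1 (0.91). These values describe 12 sums that share 2 libraries and their depth. The members themselves differed in how far they followed that mean, from 0.88 for Hspa8, 0.83 for Hsph1 and 0.75 for Hsp90aa1 to 0.36 for Dnajb1 and -0.21 for Hspb1. Each member is itself part of that mean, which raises its own value.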

How the data were processed

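Live EpCAM-positive colonic cells were profiled with 10x Genomics 3' RNA sequencing, per the labels' protocols, in 1 Mettl14 WT and 1 Mettl14 KO library. The authors deposited a filtered matrix of whole-number UMI counts per gene and cell, with a table of each cell's library and cluster. Cell Ranger, bcl2fastq and the build mm10 are named in the submitters' processing notes; versions, filters and clustering are not given in the sources used here. For CPM, each gene's counts were added up per library, and per cluster within it, and divided by the total of the same cells (python 3.11.15, numpy 2.4.6). Ratios have exact conditional binomial intervals, levels exact Poisson and shares exact Clopper-Pearson intervals, all at 95%. Genes with 50 or more UMIs in both libraries together count as measured, and clusters were compared with at least 50 cells per library. On simulated counts of 13334 genes at the depth of all cells, 96% of genes changed 2-fold and 0.503% of unchanged genes were called. The changed genes were drawn from those above a minimum expected count in KO. The simulation held counting error only, so its rates do not cover differences between mice or preparations, and cluster depths were not simulated. Depth was a median of 12094 (WT) and 9119 (KO) UMIs per cell. Doublets were not called; 437 WT and 304 KO cells held both Xist and Y-linked UMIs. The members and lists were chosen with earlier results of these data known. Named were all members, Mettl14, Hsf1, Hsp90ab1, Hspd1, up to 4 called genes per list by the interval bound farthest from 0, and the 5 genes most alike in pattern; other genes named were chosen after their values were seen. Alternatives covered scaling, thinning, depth, mitochondrial share, sex pattern, thresholds and leaving out cells or clusters. Promoters are from RefSeq (GRCm38.p6), gene positions from GENCODE vM21.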

Additional observations from a re-analysis of the deposited data

Results flagged for a closer look

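The ratio of Hspb1 pointed opposite ways in 2 cell classes: log2 1.71 (KO over WT) in goblet-like cluster 1 and -5.96 in enteroendocrine-like cluster 5, where the KO value rests on 1 UMI. The difference between the clusters was not tested, since each genotype has 1 library.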

How the results depend on the processing

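Over all cells, 85 of 120 values of single members under other settings stayed within their counting interval, 32 left it and 3 reversed a ratio whose interval had excluded equal levels (other sign changes, such as Hspa1b or Hspa8 in cluster 2, are of ratios whose interval included them); by cluster these were 335, 72 and 5 of 412. The log2 ratio of Dnajb1 over all cells ranged from 0.58 to 0.73, Dnaja1 from 0.18 to 0.32, Hspa8 from -0.25 to -0.10, Hspe1 from -0.35 to -0.16 and Hsp90aa1 from -0.32 to -0.16. Hspb1 over all cells changed sign as a mean of per-cell CPM (-0.041), with clusters at equal weight (-0.49) and without cluster 1 (-1.36, chosen after seeing the data). Hspa8 in cluster 4 changed sign as per-cell CPM (0.014), thinned (0.027), at a mitochondrial share of at most 10% (0.065) and in Y-linked cells (0.016), and Hspe1 in cluster 5 in Y-linked cells (0.16). In Xist cells the median of the measured members was 0.029. It left out Hspa1a, which had 13 UMIs in WT and 8 in KO there and was not measured. Called higher over all cells were 1 without mitochondrial, ribosomal and haemoglobin genes in the totals, by per-cell CPM, at the mitochondrial limit and at equal weight, and 0 when thinned or at 2-fold. Called lower were 0 when thinned, at the mitochondrial limit, in either sex pattern, without cluster 0 or cluster 6, at equal weight or with Hspa1a and Hspa1b summed. Except at equal weight and for the summed pair, Hspa1a then had fewer than the 50 UMIs of a measured gene and was not assessed. In cluster 0, 0 were higher without those genes in the totals, at the mitochondrial limit, in Y-linked cells and at 2-fold, and 1 was lower without those genes and in Xist cells. In cluster 1, 1 was higher without those genes, thinned, at the mitochondrial limit and at 2-fold. In cluster 2, 1 was higher at the mitochondrial limit and in Xist cells, and in cluster 3, 0 at 2-fold. In cluster 4, 1 was lower without those genes, by per-cell CPM and with the pair summed, and 1 was higher at the mitochondrial limit and in Y-linked cells. In cluster 5, 0 were higher by per-cell CPM, thinned, at the mitochondrial limit, without cells of both patterns, in Y-linked cells and at 2-fold, and 0 were lower thinned, at the mitochondrial limit, without cells of both patterns and in Xist cells. Hspb1, the member called lower in cluster 5, had 1 UMI in each library among Xist cells and was not measured there. Its log2 ratio in cluster 5 lay between -7.69 and -5.95 over the settings that gave one. Scaling moved all genes by over 0.1 in cluster 4 (-0.10, without those genes) and cluster 1 (0.12, centred on the median). Ranked by Spearman's rho, the 5 most alike genes shared 0 with those by Pearson. Leaving out cluster 6 or the cells rich in Defb50 and testing cluster 5 cells with Tph1 were also chosen after seeing the data, and the last gave no ratio, since KO had 0 UMIs. Equal weight could not be given for Hspa1a, which was at 0 in some clusters. No paired analysis was possible because each genotype has 1 library. Depth limits Hspa1a, Hspa1b and cluster 5.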
